A study of Mus musculus with 64 samples.

Results

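The 9 genes described here, Mbp, Mog, Mag, Mobp, Cnp, Cldn11, Opalin, Mal and Ugt8a, encode structural proteins of central nervous system myelin or, for Ugt8a, the enzyme that makes a major myelin lipid. They were taken by symbol from the 18432 genes of the deposited table, with earlier results of these data known. All 9 were present and passed the filter on low values in every comparison. The table came from bulk RNA-seq of frontal cortex and hippocampus in mice with the Cyfip2 Arg87Cys allele, a model of an epileptic encephalopathy. CYFIP2 is a subunit of the WAVE regulatory complex, which controls actin assembly. The groups were heterozygous knock-in mice (KI) and wild-type (WT) littermates, both on the C57BL/6N background, at postnatal weeks 1, 7, 14 and 28. Frontal cortex and hippocampus of both hemispheres came from the same animals, 4 mice per genotype and age, so that 16 groups of 4 made up the 64 libraries. The allele was present in every cell of the KI mice, so a difference between genotypes could not be assigned to a cell type by design. Because whole tissue was sequenced, fewer oligodendrocytes and less RNA per oligodendrocyte cannot be told apart.

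Myelin is the compacted, lipid-rich membrane that oligodendrocytes wrap around axons, and in the mouse forebrain most of it is laid down between birth and young adulthood. Oligodendrocyte precursors leave the cell cycle, pass through a short premyelinating stage and then switch on the genes for myelin proteins and lipids together. The transcription factors Sox10 and Myrf are required for that switch, and the transcripts stay abundant in adult oligodendrocytes.

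Values are normalized counts, which are gene counts divided by a size factor per library. Library sums lay between 29225600 and 32601200, the highest correlation between libraries was r = 0.989, and the genes that mark each region separated the dissections. All 7 hippocampal markers were higher in WT hippocampus than in WT cortex at every age, and 5 or 6 of 7 cortical markers were lower. Cyfip2 itself was called lower in KI cortex at week 28 alone (log2 difference -0.44 ± 0.09 (SE), limma adjusted p = 0.0058) and was not called elsewhere, and its count does not tell the alleles apart. A difference is given below on the scale log2(normalized count + 1), and a gene was called where its limma p, adjusted by Benjamini-Hochberg over all genes tested, was below 0.05. Mbp, Mog and Cnp each overlap a gene on the opposite strand, and Mobp overlaps Gm38642 on its own strand, so its count may include reads of that gene.

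The question addressed first was how far the genes rose as WT mice matured, since this sets the scale for every later difference. From week 1 to week 7 all 9 were called higher in both regions, with no overlap between the ages. Over all genes tested, 33.2% were called higher in cortex and 31.8% in hippocampus, and 29.7% and 28.3% rose with no overlap between the libraries. The median of the 9 log2 differences was 3.91 in cortex and 5.01 in hippocampus, against 0.01 over all genes in each region.

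Mal (ENSMUSG00000027375, GRCm38 chr2:127633226-127656695, minus strand) encodes a small proteolipid of lipid rafts in compact myelin. In WT cortex at week 1 it was at 110, 70.1, 89.8 and 60.8 normalized counts, and at week 7 it was at 7970, 10332, 9010 and 7500. The hippocampus held 89.6, 89.0, 94.3 and 70.4 at the first age and 9812, 7356, 10306 and 10185 at the second. Its log2 difference was 6.73 ± 0.17 (SE) in cortex and 6.76 ± 0.11 in hippocampus, a rise of 106-fold and 108-fold. It was the sixth largest of 18390 genes in cortex and the fifth largest of 18415 in hippocampus.

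Opalin (ENSMUSG00000050121, chr19:41061710-41077113, minus strand), a transmembrane glycoprotein found at the paranodal loops, began from near the detection floor. The WT libraries of week 1 held 6.43, 2.07, 8.93 and 5.66 normalized counts in cortex, and those of hippocampus held 1.92, 4.34, 2.89 and 1.94. By week 7 the cortical libraries had reached 624, 703, 615 and 594 and the hippocampal ones 712, 633, 759 and 828. The log2 difference was 6.67 ± 0.26 in cortex and 7.64 ± 0.17 in hippocampus, where it ranked 1 of 18415 genes. The added count of 1 makes this difference smaller than the ratio of the values for a gene so close to 0.

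Mobp (ENSMUSG00000032517, chr9:120149707-120181484, plus strand), a small basic protein of the compact membrane, showed the largest gap between the regions in its rise, a gap that was not tested. In WT cortex it went from 841, 263, 719 and 411 at week 1 to 19995, 26296, 22146 and 19978 at week 7, a log2 difference of 5.44 ± 0.27. In WT hippocampus it went from 281, 70.9, 311 and 48.5 to 27250, 22915, 26249 and 27531, a difference of 7.61 ± 0.41. The week 7 levels of the regions lay close together, and the week 1 levels of hippocampus were split into a higher and a lower pair.

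Mog (ENSMUSG00000076439, chr17:37010743-37023398, minus strand), an immunoglobulin-like protein of the outermost myelin surface, followed the same course. It was at 65.7, 17.2, 44.8 and 28.9 in WT cortex and at 24.4, 4.54, 23.5 and 5.93 in WT hippocampus at week 1. By week 7 the lowest and highest WT cortical libraries held 1495 and 1889 normalized counts (log2 difference 5.55 ± 0.28) and 1447 to 2019 in hippocampus (7.22 ± 0.36). The same pair of WT hippocampal libraries, replicates 2 and 4, was low for Mog, Mobp, Mag and Mbp at week 1.

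Mag (ENSMUSG00000036634, chr7:30899176-30914873, minus strand) encodes the adhesion protein of the membrane that faces the axon, and Mbp (ENSMUSG00000041607, chr18:82475146-82585637, plus strand) encodes the protein that holds the cytoplasmic faces of the membrane together. The Mbp locus also makes Golli transcripts in neurons and other cells, and a count per gene does not separate them. In WT cortex Mbp rose from 8165, 3369, 6030 and 4892 at week 1 to 69992, 89413, 74634 and 69349 at week 7. The log2 difference was 3.82 ± 0.21 in cortex and 4.66 ± 0.19 in hippocampus for Mbp, and 3.91 ± 0.25 and 5.01 ± 0.24 for Mag. Cldn11 (ENSMUSG00000037625, chr3:31149920-31164324, plus strand), the claudin of the tight junctions between myelin layers, rose by 3.48 ± 0.19 and 3.92 ± 0.14. Claudin-11 is also made by cells of the meninges.

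The smallest rises were those of Cnp and Ugt8a. Cnp (ENSMUSG00000006782, chr11:100574904-100591729, plus strand) encodes a phosphodiesterase that keeps cytoplasmic channels in myelin open and is already made in precursors, and Ugt8a (ENSMUSG00000032854, chr3:125865271-125938619, minus strand) encodes the ceramide galactosyltransferase that makes galactocerebroside. Cnp was at 3039, 1928, 2552 and 2274 in WT cortex at week 1 and at 8779, 11121, 9874 and 9086 at week 7, a log2 difference of 2.00 ± 0.14, and in hippocampus the difference was 2.41 ± 0.12. Ugt8a was at 624, 271, 490 and 369 and then at 1865, 2126, 1986 and 1924, a difference of 2.24 ± 0.18, and in hippocampus the difference was 2.57 ± 0.14. The fold for these genes lay between 4.01 and 5.94, while Opalin, Mal, Mog and Mobp rose at least 43.3-fold in each region.

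**Figure D1:**
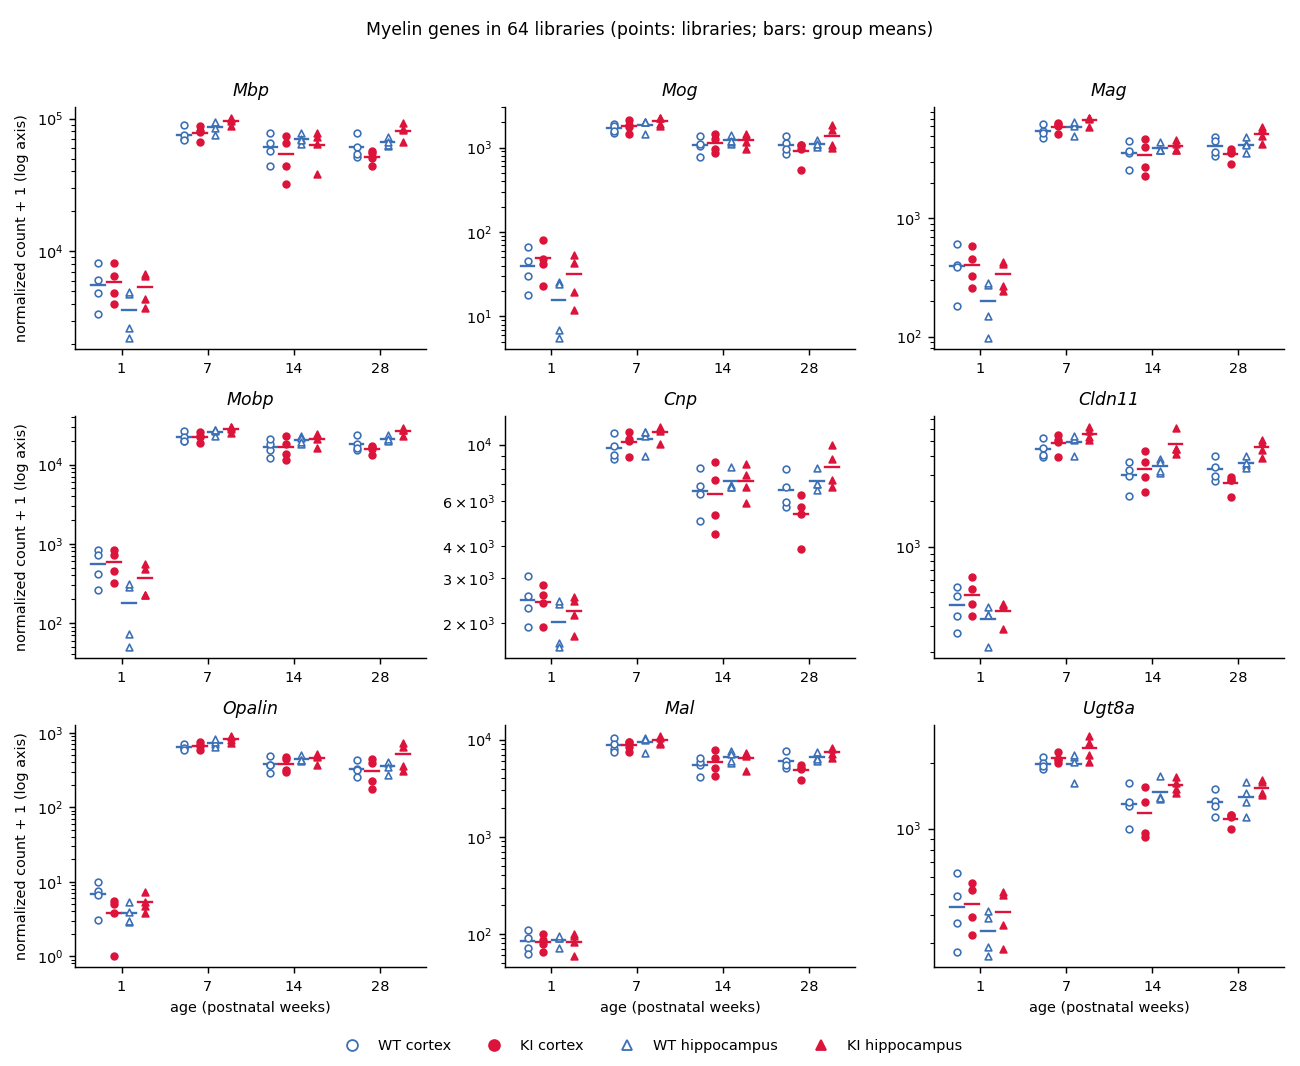
Normalized count plus 1 on a log axis for each of the 9 genes in all 64 libraries, by age in weeks. Open blue symbols are WT, filled red symbols are KI, circles are cortex, triangles are hippocampus and bars are group means (n = 4). Every gene rose from week 1 to week 7, Cnp and Ugt8a least, and the groups of weeks 7 to 28 lay within a narrow band by comparison.

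This unequal rise changed the make-up of the summed signal. The 9 genes together took 0.0317% ± 0.0110 (SD, n = 4) of all normalized counts in WT cortex at week 1 and 0.413% ± 0.0522 at week 7, and the hippocampal shares were 0.0230% ± 0.00763 and 0.482% ± 0.0527. Within that sum, Cnp made up 25.4% ± 3.63 in cortex at week 1 and 7.45% ± 0.179 at week 7, while Mobp went from 5.37% ± 1.2 to 16.9% ± 0.208 and Mal from 0.852% ± 0.178 to 6.65% ± 0.271. In hippocampus Cnp went from 30.5% ± 3.76 to 7.10% ± 0.272. The share of Mbp changed little, at 55.7% ± 2.29 and 58.1% ± 0.508 in cortex. These shares are of counts, which grow with transcript length, so they follow 1 gene over time and do not rank the genes. Per kilobase of annotated exon, Mbp was highest in WT cortex at week 7, at 8956 ± 1103, followed by Mobp at 3227 ± 434, Mal at 3133 ± 452 and Cnp at 2670 ± 287. That length joins the exons of all annotated transcripts of a gene, 8469 bases for Mbp, 6849 for Mobp, 3639 for Cnp and 2778 for Mal. The transcripts expressed here may be shorter, so the order of genes on this scale depends on the length used and is not a ranking of transcript numbers. Cnp was below Mobp and Mal in each of the 4 libraries, while Mobp and Mal changed places between libraries. At week 1 Cnp, at 673 ± 129, and Mbp, at 663 ± 239, were level on this scale, and Mal was at 29.7 ± 7.83.

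**Figure D2:**
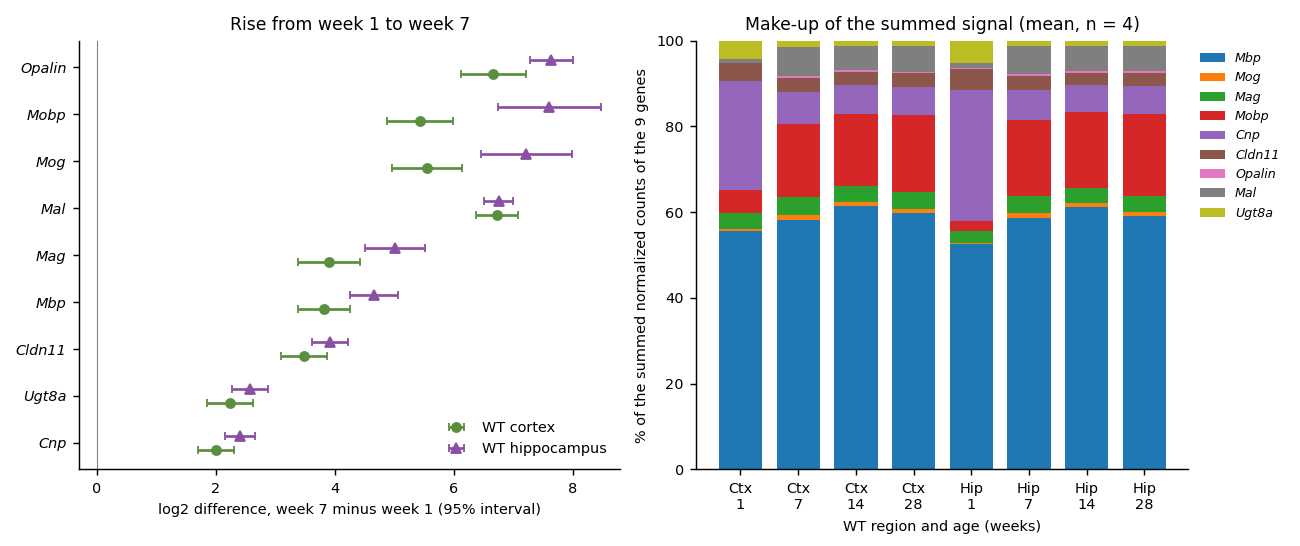
Left, log2 difference between week 7 and week 1 in WT cortex (circles) and WT hippocampus (triangles) with 95% intervals (limma, 16 WT libraries per region). Right, the mean percent that each gene took of the summed normalized counts of the 9 genes in each WT group (n = 4), in which the Cnp band shrank from 25.4% to 7.45% in cortex as Mobp and Mal grew.

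The promoters of Mobp and Opalin, which rose most in hippocampus, and of Cnp and Ugt8a, which rose least in both regions, are shown because their base composition differed. Windows of 250 bases before to 50 bases after the start site were taken from RefSeq (GRCm38.p6) for 8 of the 9 genes. Mbp was not matched. Each is printed 5′ to 3′ on the strand of the gene, with every ACAAAG or its reverse complement CTTTGT, the core of the sites bound by SOX factors, in capitals.
Mobp (chr9:120149492-120149791, plus strand): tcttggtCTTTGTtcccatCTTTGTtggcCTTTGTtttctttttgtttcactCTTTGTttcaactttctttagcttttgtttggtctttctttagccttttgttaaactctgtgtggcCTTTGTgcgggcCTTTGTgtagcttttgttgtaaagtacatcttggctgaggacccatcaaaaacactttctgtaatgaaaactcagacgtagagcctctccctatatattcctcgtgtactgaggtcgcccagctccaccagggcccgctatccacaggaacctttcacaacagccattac
Opalin (chr19:41077064-41077363, minus strand): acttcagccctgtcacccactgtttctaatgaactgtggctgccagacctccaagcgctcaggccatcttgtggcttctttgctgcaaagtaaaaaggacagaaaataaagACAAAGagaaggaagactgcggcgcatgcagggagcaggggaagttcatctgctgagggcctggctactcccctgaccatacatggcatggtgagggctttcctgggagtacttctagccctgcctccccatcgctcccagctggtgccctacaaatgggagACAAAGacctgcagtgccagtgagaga
Cnp (chr11:100574689-100574988, plus strand): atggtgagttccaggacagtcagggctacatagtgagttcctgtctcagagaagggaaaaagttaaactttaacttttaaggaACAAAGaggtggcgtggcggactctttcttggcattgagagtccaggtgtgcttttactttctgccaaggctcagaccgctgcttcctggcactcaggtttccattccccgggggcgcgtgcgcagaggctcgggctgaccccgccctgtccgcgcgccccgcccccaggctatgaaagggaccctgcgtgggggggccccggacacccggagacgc
Ugt8a (chr3:125938603-125938902, minus strand): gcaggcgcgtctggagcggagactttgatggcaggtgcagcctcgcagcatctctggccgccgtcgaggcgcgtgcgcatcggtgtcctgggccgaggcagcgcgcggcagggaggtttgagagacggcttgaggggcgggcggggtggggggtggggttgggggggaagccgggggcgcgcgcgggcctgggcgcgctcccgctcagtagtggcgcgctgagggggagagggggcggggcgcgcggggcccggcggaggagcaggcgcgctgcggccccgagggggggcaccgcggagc

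The Mobp window held 6 copies of ACAAAG on either strand, and 1 of the 32851 promoters of this length in the table (0.00304%) held that many, while 18.7% held at least 1. Opalin held 2 copies, Cnp and Mag held 1 each and the other 4 held none. CTGGCAC, a MYRF-type core, was in Mag, Cnp and Opalin and in 5.01% of all promoters. The E-box CAGCTG was in Opalin and in 16.3% of all, and TATAAA was in none of the 8 and in 13.6% of all. GGGCGG, the GC box, was present 3 times in Ugt8a, 2 times in Cnp and 1 time in Cldn11, and in 35.7% of all promoters. All 5 words were searched on both strands. In the 4 windows printed, matches of different words shared no base, and 2 of the 3 GC boxes of Ugt8a overlapped each other. The words were chosen after the windows had been read, so the matches are a description of the letters alone.

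The 3 promoters richest in CpG belonged to the 3 genes that rose least. Ugt8a held 40 CpG dinucleotides and 78.3% G and C, Cldn11 held 24 and 66.3%, and Cnp held 17 and 59.7%, against a median of 7 and 52.7% over all promoters. The other 5 matched genes held 3 to 8 CpG, and their log2 rises were 3.91 to 6.73 in cortex and 5.01 to 7.64 in hippocampus. These are 8 genes of a single cell lineage, and no test was made of the relation.

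The other genes of the program were read from lists. All 24 other mature oligodendrocyte genes were called higher at week 7 than at week 1 in both regions (median log2 difference 2.52 in each), led by Ermn, a cytoskeletal protein of myelin sheaths, at 5.37 ± 0.14 in cortex and 5.94 ± 0.13 in hippocampus. Of 12 enzymes of myelin lipid and acetate metabolism, 9 were called higher in each region. Fa2h, which hydroxylates the fatty acids of galactocerebroside, rose by 3.43 ± 0.20 and 3.71 ± 0.18, and Aspa, which frees acetate from N-acetylaspartate, by 3.40 ± 0.18 and 3.20 ± 0.13. Among 8 lineage transcription factors, Nkx6-2 (5.95 ± 0.40 in cortex, 6.68 ± 0.21 in hippocampus), Myrf (2.38 ± 0.18, 2.91 ± 0.15) and Sox10 (0.45 ± 0.15, 0.38 ± 0.09) rose, and Olig2 (-0.87 ± 0.08, -0.86 ± 0.07), Nkx2-2 and Olig1 fell. In the precursor list 8 of 9 genes fell in each region, including Cacng4 (-2.23 ± 0.08, -2.08 ± 0.12), and Neu4 rose. The axonal partner Cntnap1, which anchors the paranodal loops, rose by 2.51 ± 0.13 and 1.82 ± 0.07.

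After week 7 the values came down by a small part of the earlier rise. In WT cortex all 9 were below their week 7 level at week 14, with log2 differences of -0.35 to -0.77 and a median of -0.62, against 0.00 over all genes. Cnp (-0.57 ± 0.14, adjusted p = 0.0263) and Mal (-0.67 ± 0.17, adjusted p = 0.0263) were called lower, beside 2.14% of all genes. Cnp had fallen to 5007, 6391, 6903 and 8102 and Mal to 4083, 5435, 5942 and 6533. For 7 of the 9 the week 14 libraries lay below all those of week 7 (5.98% of all genes did so), Mbp and Mobp being the exceptions. Both calls were lost without WT cortex replicate 1 or 2 of week 14 or replicate 2 or 3 of week 7, with adjusted p between 0.0544 and 0.0916. The fit also shared its spread with the week 1 libraries. Without WT cortex replicate 1 of week 1 the count of members called was 4, and without replicate 2 of week 1 it was 6.

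In WT hippocampus all 9 were again below their week 7 level (-0.30 to -0.72, median -0.52), and 4 were called lower, beside 2.51% of all genes. These were Cnp (-0.55 ± 0.12, adjusted p = 0.0132), Mal (-0.50 ± 0.11, 0.0171), Opalin (-0.72 ± 0.17, 0.0217) and Cldn11 (-0.52 ± 0.14, 0.0461). Opalin stood at 500, 416, 436 and 424 at week 14, below each of the week 7 libraries. Mbp went from 92414, 75273, 85133 and 94960 to 77812, 63842, 70610 and 69205, an overlap with a difference of -0.30 ± 0.19 that was not called. The ages did not overlap for 5 of the 9 (Mog, Mag, Cnp, Cldn11 and Opalin), and 5.28% of all genes were lower without overlap. The 4 calls did not survive a fit that shared its spread over all 64 libraries, those of week 1 in both regions included (adjusted p 0.0520 to 0.252). Without hippocampal replicate 2 of week 14 or replicate 4 of week 7 Cnp alone was called. The call of Cldn11 held in 3 of the 16 fits without a single library (adjusted p up to 0.123 in the others) and was lost with total-sum scaling (0.0515). Between weeks 14 and 28 limma called 0 of the 9 genes in either region, and 0 had an unadjusted p under 0.05. The differences ran from -0.20 to 0.20 in cortex and from -0.34 to 0.08 in hippocampus, while 15.3% and 11.6% of all genes were called. For Opalin in hippocampus the libraries of week 28 (396, 401, 273 and 344) again lay below those of week 14, as 9.49% of all genes did, a difference of -0.34 ± 0.17 with an adjusted p of 0.228.

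Comparing the regions within WT mice, the hippocampus held less of these transcripts at week 1. The differences of 8 genes were below 0 (-0.29 to -1.93) and that of Mal was 0.08 ± 0.19. Only Mobp was called, at -1.93 ± 0.57 (adjusted p = 0.0222, 18.6% of all genes called lower), and the libraries overlapped, with 281, 70.9, 311 and 48.5 in hippocampus against 841, 263, 719 and 411 in cortex. Mog was at -1.53 ± 0.55 (adjusted p = 0.0522) and Mag at -0.99 ± 0.39 (0.0700). Libraries with the same number deviated together at this age (r between 0.102 and 0.256 for the 4 pairs), and with the replicate number as a block 6 of the 9 were called lower: Mobp, Mog (adjusted p = 0.00318), Mbp (0.00554), Cnp (0.0123), Mag (0.0161) and Ugt8a (0.0377). Without cortical replicate 3, or hippocampal replicate 2 or 4, the call of Mobp was lost in the unblocked fit (adjusted p 0.0560 to 0.0688). Total-sum scaling moved the share of higher calls among all genes from 46.3% to 66.6% and left the count of members called at 1.

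From week 7 on the regions were close. Mobp was called higher in hippocampus at week 7, at 0.24 ± 0.09 (adjusted p = 0.0459), beside 20.4% of all genes, and the call was lost with the replicate block (0.0920), without the filter on low values (0.0525) and in 6 of 8 fits without a single library (up to 0.127). All 9 were above 0 at week 14 (0.14 to 0.33) and at week 28 (0.05 to 0.24), and limma called 0 of them, with 1 and 0 at an unadjusted p under 0.05. By contrast, 34.6% and 37.8% of all genes differed between the regions at those ages. Within the mature oligodendrocyte list 11 of 24 genes were called higher in hippocampus at week 7, 4 at week 14 and 5 at week 28. Over all genes 20.4% were called higher at week 7, 3125 of 18411 at week 14 and 3457 of 18400 at week 28. The list counts of weeks 14 and 28 are near those shares. Gpr37, an orphan receptor of oligodendrocytes, was the most constant (0.69 ± 0.07, 0.46 ± 0.10 and 0.37 ± 0.11). Enpp2 was higher at week 28 by 2.00 ± 0.35. It is also a gene of the choroid plexus, whose 6 markers summed to 36487 to 124105 in those hippocampal libraries and to 432 to 21582 in the cortical ones.

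The main question was whether the KI allele changed these genes. At week 1, limma called 0 of the 9 in either region, beside 0.00546% of all genes in cortex and 0.0109% in hippocampus. An unadjusted p under 0.05 was reached by 0 members in cortex and by Mobp, Mag and Mbp in hippocampus, and 0 reached an exact permutation p under 0.05. In KI hippocampus Mobp stood at 556, 224, 226 and 474, against 281, 70.9, 311 and 48.5 in WT (1.36 ± 0.56, adjusted p = 0.887). Mog stood at 52.1, 10.8, 18.6 and 41.7 against 24.4, 4.54, 23.5 and 5.93 (1.11 ± 0.60). Mag (0.84 ± 0.32) and Mbp (0.60 ± 0.27) lay on the same side of 0, and the genotypes overlapped for each of these genes. The interval for Mobp ran from 0.12 to 2.60 before adjustment, the width that this spread allows. Opalin in KI cortex was at 4.09, 0, 2.81 and 4.55, too low for a useful comparison.

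At week 7 all 9 differences were above 0 in both regions, at 0.01 to 0.13 in cortex and 0.08 to 0.23 in hippocampus, and limma called 0, beside 0.00545% and 0.0218% of all genes. In hippocampus 2 genes, Mag (0.20 ± 0.09) and Ugt8a (0.23 ± 0.11), had an unadjusted p under 0.05 and the adjusted p values were at least 0.797. Ugt8a was at 2172, 2014, 2476 and 2663 in KI and at 2123, 1610, 2022 and 2179 in WT, so that 2 of the 4 KI libraries lay within the WT range and 2 above it. The 95% intervals of the 9 genes reached from -0.20 to 0.35 in cortex and from -0.15 to 0.47 in hippocampus, on the log2 scale. In cortex 0 of the 9 had an unadjusted p under 0.05. The rise from week 1 to week 7 was compared between the genotypes as an interaction, and limma called 0 of the 9 in either region (0% of all genes in cortex, 0.0109% in hippocampus), with 0 at an unadjusted p under 0.05. The widest terms were those of Mobp in hippocampus (-1.24 ± 0.64) and Opalin in cortex (1.04 ± 0.59).

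**Figure D3:**
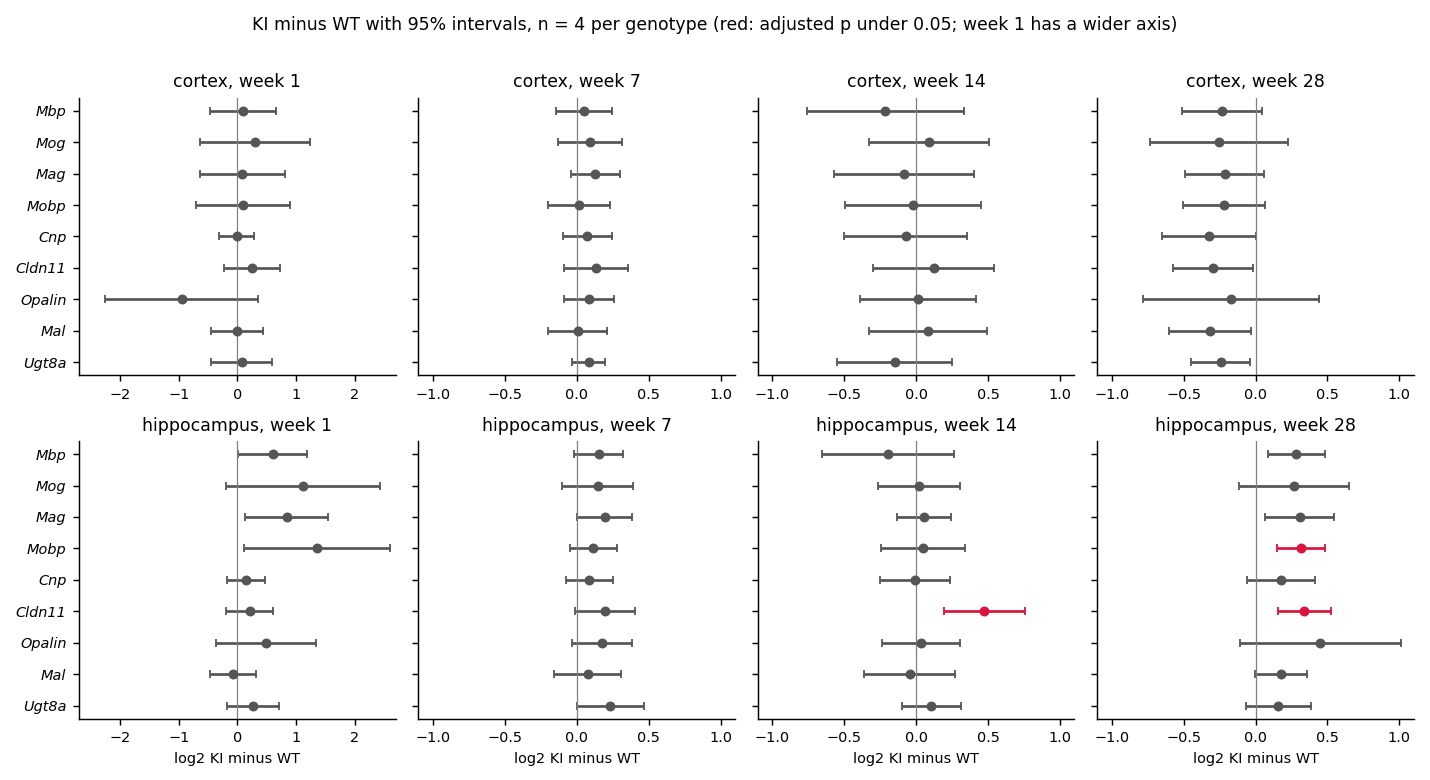
Log2 difference of KI minus WT for the 9 genes in each region and age with 95% intervals (limma, n = 4 per genotype), red where the adjusted p was below 0.05 and with a wider axis at week 1. The calls were Cldn11 at hippocampal weeks 14 and 28 and Mobp at hippocampal week 28.

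By week 14, when 5.18% of all genes differed between genotypes in cortex, the 9 genes no longer lay to 1 side. In that region their differences fell on either side of 0 (-0.21 to 0.12), limma called 0 and 0 had an unadjusted p under 0.05. The KI cortical libraries were far apart, with Mbp at 31918, 74040, 44255 and 65794, and KI replicates 1 and 3 were low for all 9 genes while replicates 2 and 4 were high. WT cortex at this age showed a similar spread, with Mbp at 43700, 56506, 64899 and 77538.

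In hippocampus at week 14 Cldn11 was the 1 gene called. It was at 6137, 4418, 4130 and 4450 in KI and at 3806, 3074, 3650 and 3153 in WT, so that every KI library lay above every WT library. The difference was 0.47 ± 0.13, or 1.39-fold (adjusted p = 0.0334, exact permutation p = 0.0286, the smallest that 4 against 4 allows), beside 7.64% of all genes called higher and 11.6% higher with no overlap. The median of the 9 genes was 0.03, and the other 8 lay between -0.20 and 0.10. KI replicate 1 had the highest Cldn11 and at the same time the lowest Mbp, at 38106 against 64842 to 78391 in the other KI libraries and 63842 to 77812 in WT. Mal (4766), Mobp (16274), Mog (975), Cnp (5893) and Opalin (364) were also lowest in that library, while its Ugt8a (1617) lay within the WT range and its Mag (3782) just beneath it (3789 to 4433). Without it the Cldn11 difference was 0.35 with an adjusted p of 0.0195. The call was lost without any single WT library (adjusted p 0.0531 to 0.0973) and with total-sum scaling (0.0505).

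Markers of other cells moved in these same libraries. The 7 astrocyte markers summed to 229885 to 325641 in KI and 158032 to 185631 in WT hippocampus, with Gfap called higher by 2.75 ± 0.32 and Aqp4 by 1.33 ± 0.37. The 7 microglia markers summed to 24976 in KI replicate 1, to 8359 to 11876 in the other KI libraries and to 7397 to 9156 in WT, with 0 of 7 called. Of the striatal markers, Penk (3.05 ± 0.26) and Drd1 (2.07 ± 0.25) were called higher. For the meninges, a further source of Cldn11, the counts of 7 leptomeningeal genes (Slc6a13, Slc22a6, Slc47a1, Foxc2, Cdh1, Ranbp3l and Aldh1a2, chosen after the Cldn11 values were known) summed to 772 to 1138 in KI and 1020 to 1460 in WT. The part of the other cell types in the Cldn11 difference was not tested.

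**Figure D4:**
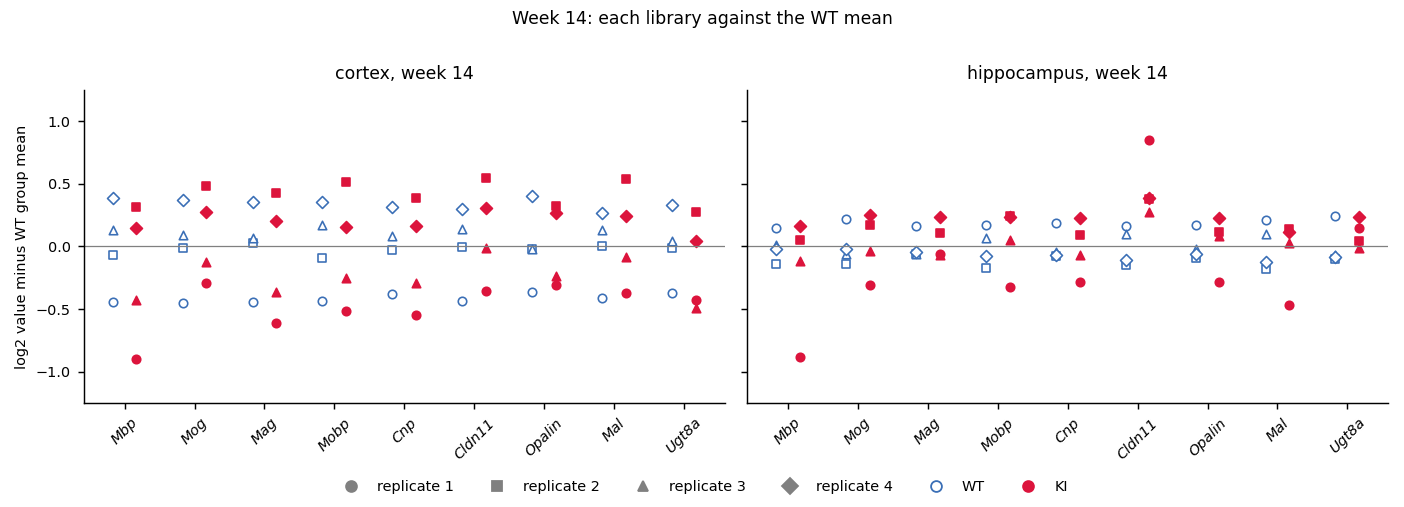
Week 14: log2 value of each library minus the mean of the 4 WT libraries of its region, for the 9 genes. Symbols mark the replicate number, open blue is WT and filled red is KI. In hippocampus the 4 KI libraries lay above all WT libraries for Cldn11 and for no other gene, and KI replicate 1 was the lowest for Mbp (38106).

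At week 28 the KI differences lay on opposite sides of 0 in the 2 regions. In cortex all 9 genes were below 0, at -0.17 to -0.32 with a median of -0.24 against 0.00 over all genes, and limma called 0, and 4 (Ugt8a, Mal, Cldn11 and Cnp) had an unadjusted p under 0.05 and 0 an exact permutation p under 0.05. The lowest adjusted p was that of Ugt8a, at 0.0904 (1129, 1154, 1153 and 997 in KI against 1523, 1338, 1130 and 1273 in WT, -0.24 ± 0.09). Cnp was at 5695, 5343, 6347 and 3909 in KI and at 8039, 6821, 5671 and 5976 in WT (-0.32 ± 0.15, adjusted p = 0.141). For both genes the KI libraries lay in the lower part of the WT range or beneath it. In this comparison 22.2% of all genes were called, and 0 of the 9 is below that share. With total-sum scaling Ugt8a was called (-0.29, adjusted p = 0.0454), and that scaling moved the share of higher calls over all genes from 54.8% to 43.7%. Without WT replicate 3 Ugt8a was called as well (adjusted p = 0.0440).

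In hippocampus at week 28 all 9 were above 0, at 0.16 to 0.45 with a median of 0.28 against 0.00 over all genes. They stayed above 0 in each of the 16 fits of this comparison, the main fit included. Changes of the filter, the block or the shared spread cannot move these differences. The 9 genes also vary together, so their signs are not independent. Mobp was at 26992, 22944, 29337 and 27132 in KI and at 20336, 23885, 20028 and 21147 in WT. Its difference was 0.32 ± 0.08, or 1.24-fold, with an adjusted p of 0.0179. Cldn11 was at 4842, 3887, 5072 and 4342 in KI and at 3459, 3957, 3290 and 3596 in WT, a difference of 0.34 ± 0.08, or 1.26-fold (adjusted p = 0.0191). For each of the 2 called genes KI replicate 2 alone fell within the WT range. The exact permutation p was 0.0571 for both, and 8.92% of all genes were called higher, against 2 of the 9. With the replicate number as a block both calls were lost (adjusted p = 0.0513 for Mobp and 0.0514 for Cldn11), and 3 of the 4 same-numbered KI and WT pairs of this comparison correlated above 0.1.

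The next genes in size of evidence were Mbp and Mag. Mbp was at 81306, 66282, 92218 and 83943 in KI against 62506, 73262, 62977 and 66039 in WT (0.28 ± 0.09, adjusted p = 0.0560), and Mag was at 5711, 4302, 5897 and 4957 against 4241, 4884, 3560 and 4153 (0.31 ± 0.11, adjusted p = 0.0797). In both, 3 of the 4 KI libraries lay above all 4 WT libraries. Without WT replicate 1 or 3 neither Mobp nor Cldn11 was called (adjusted p 0.0503 to 0.0592), Cldn11 was lost without KI replicate 1 (0.0515), and without KI or WT replicate 2 the count rose to 4, with Mbp and Mag. With sample weights Mbp was called as well (adjusted p = 0.0460). With total-sum scaling both calls held and the share of higher calls over all genes went from 56.3% to 40.6%. In a fit that shared its spread over all 64 libraries neither gene was called (adjusted p 0.582 and 0.209).

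Opalin and Mog ordered the KI replicate numbers of week 28 in a like way in both regions. Whether equal numbers mark 1 mouse is not stated, and the pattern was not tested. In KI cortex Opalin was at 392, 224, 443 and 175 in replicates 1 to 4 and in KI hippocampus at 651, 306, 730 and 358. Mog was at 1067, 964, 1087 and 548 in cortex and at 1599, 992, 1855 and 1063 in hippocampus. Replicates 2 and 4 lay below replicates 1 and 3 for both genes and both regions. For Mog in cortex replicate 2 (964) was close to replicate 1 (1067) and within the WT range. The WT libraries spanned 253 to 426 for Opalin and 838 to 1365 for Mog in cortex, and 273 to 401 and 1021 to 1240 in hippocampus. The highest KI value was 2.53 times the lowest for Opalin in cortex and 2.38 times in hippocampus, which widened the intervals of these genes (-0.11 to 1.01 for Opalin in hippocampus). Over all genes the deviations of same-numbered KI libraries correlated at 0.239 to 0.443 between the regions at this age.

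**Figure D5:**
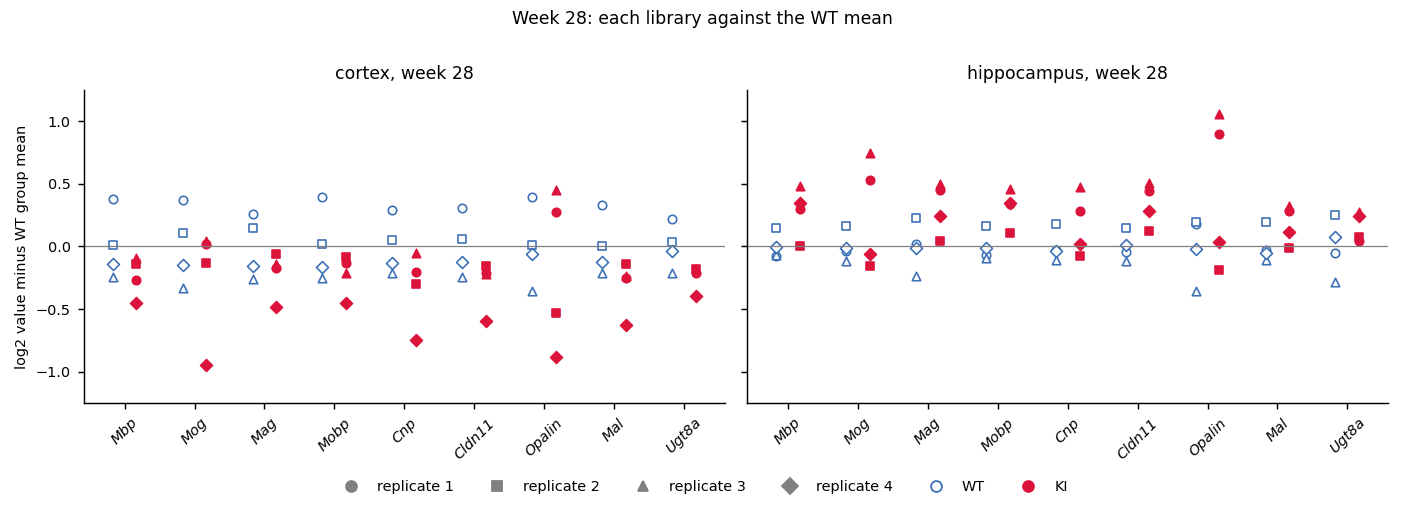
Week 28: log2 value of each library minus the mean of the 4 WT libraries of its region. Symbols mark the replicate number, open blue is WT and filled red is KI. The KI libraries lay mostly below 0 in cortex and above 0 in hippocampus, and KI replicates 2 and 4 were below replicates 1 and 3 for Mog and Opalin in both regions.

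The difference between the regions was tested as an interaction. The fit took the 16 libraries of an age as independent, although both regions came from the same mice. Its p-values therefore do not account for the shared animal. At week 28 all 9 terms (hippocampal minus cortical KI difference) were above 0, at 0.40 to 0.63 with a median of 0.52 against 0.00 over all genes. The signs held in each of the 24 fits of this comparison, of which several, as above, cannot move the terms. Cldn11 was called, at 0.63 ± 0.16 (adjusted p = 0.0358), beside 2.39% of all genes called higher. Mobp (0.53 ± 0.16, adjusted p = 0.0764) and Mbp (0.52 ± 0.17, 0.0951) were next, and 7 of the 9 had an unadjusted p under 0.05. The Cldn11 call was lost in 9 of the 16 fits without a single library (adjusted p 0.0510 to 0.0723). It was also lost when the spread was shared over all 64 libraries, week 1 included (0.136). For weeks 1, 7 and 14 limma called 0 of the 9 interaction terms, beside 0%, 0.00543% and 2.85% of all genes, and 0 had an unadjusted p under 0.05. No change of the KI difference between weeks 7 and 14 or between weeks 14 and 28 was called in either region, and 0 of the 9 genes had an unadjusted p under 0.05 in any of these 4 tests. Over all genes 3.18% and 0% were called in cortex for the earlier and later step, and 10.3% and 0% in hippocampus.

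At week 28 other cell types differed too in KI hippocampus, where 4 of 7 astrocyte markers and 5 of 7 microglia markers were called higher. Over all genes 8.92% were called higher in that comparison. The astrocyte markers summed to 217447 to 251123 in KI and 157775 to 168697 in WT, the microglia markers to 10945 to 12386 and 8551 to 9742, and neither sum overlapped between genotypes. Gfap was higher by 2.00 ± 0.08 and C1qa by 0.70 ± 0.12. The leptomeningeal genes summed to 685 to 1302 in KI and to 1026 to 2390 in WT. In cortex 1 of 7 microglia markers (Aif1, 1.14 ± 0.17) and 1 of 7 astrocyte markers (Gfap, 1.52 ± 0.23) were higher, and 2 astrocyte markers, Slc1a3 and Gja1, were lower. Over all genes 2236 of 18387 were called higher in that cortical comparison and 22.2% in either direction, so 1 of 7 called higher is near the share over all genes. Among the thalamic markers Slc17a6 was lower in KI in both regions (-0.84 ± 0.16 in cortex, -0.65 ± 0.19 in hippocampus). The part of these cells, or of the dissection, in the myelin gene differences was not tested.

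At week 28 the calls among the other mature oligodendrocyte genes went 1 way in cortex and both ways in hippocampus. In KI cortex 22.2% of all genes were called in either direction (4081 of 18387, 2236 of them higher). Of 24 mature oligodendrocyte genes 8 were called lower there and 0 higher, with a median of -0.40 against 0.00 over all genes. These included Gjc3, a gap junction protein (-0.76 ± 0.15, 787 to 1237 in KI against 1529 to 2161 in WT), and Evi2a (-0.57 ± 0.18). Enpp2, the lysophosphatidic acid producer autotaxin, was at -1.01 ± 0.26, and the choroid plexus markers summed to 21582 in WT replicate 2 and to 334 to 1056 in the other libraries of this comparison. In KI hippocampus Tspan2 (0.43 ± 0.09) and Gsn (0.39 ± 0.09) were called higher and Ndrg1 (-0.35 ± 0.07) and Gjc3 (-0.29 ± 0.07) lower, with a median of 0.08 over the 24. Over all genes 2911 of 18389 were called in KI hippocampus, 1640 of them higher, so calls in both directions were common in that comparison. Ndrg1, a stress-responsive gene of myelinating glia, was also lower in KI hippocampus at week 14 (-0.62 ± 0.13, 1777 to 2696 against 2842 to 3825), as was Car2 (-0.31 ± 0.08).

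Lipid enzymes were called in both directions in KI cortex at week 28. The lysosomal genes Smpd1, the acid sphingomyelinase (0.47 ± 0.09), Psap, the saposin precursor (0.29 ± 0.06), and Arsa, which degrades sulfatide (0.27 ± 0.08), were called higher, and Elovl1 (-0.45 ± 0.13), Cers2 (-0.29 ± 0.09), both makers of very long chain lipids, and Galc (-0.32 ± 0.09), which degrades galactocerebroside, were called lower. In KI hippocampus 4 of the 12 were higher, Smpd1 (0.29 ± 0.05) and Arsa (0.26 ± 0.06) among them, and 0 were lower. Over all genes 8.92% were called higher there. Smpd1 was also higher at hippocampal week 14 (0.31 ± 0.07). Lysosomal genes are expressed in all cells of the tissue, microglia and astrocytes included. Of the lineage factors, Sox8 was lower in cortex (-0.69 ± 0.09), and Nkx6-2 (0.57 ± 0.15) and Olig1 (0.22 ± 0.06) were higher in hippocampus. Of the newly formed oligodendrocyte genes, 9630013A20Rik (0.61 ± 0.15) and Enpp6 (0.42 ± 0.10) were higher in hippocampus and 0 of 8 were called in cortex.

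The axonal side of the myelinated fibre was read from 10 genes of nodes and paranodes. Cntnap1 was lower in KI hippocampus at week 14 (-0.66 ± 0.08) and week 28 (-0.35 ± 0.07), with Sptbn4, the nodal spectrin, lower at week 14 (-0.54 ± 0.08). Nfasc, the neurofascins of node and paranode, was higher at both ages (0.40 ± 0.08 and 0.19 ± 0.05). In KI cortex 0 of the 10 were called at week 14 and Kcna1, a juxtaparanodal potassium channel, was higher at week 28 (0.24 ± 0.05). The precursor gene Vcan was higher in KI at week 28 in both regions (0.46 ± 0.10 in cortex, 0.71 ± 0.10 in hippocampus). Of 6 Schwann cell markers, which would point to nerve or root tissue, 4 were in the table, and they summed to 541 to 1416 over the groups of weeks 14 and 28, where 1, Cdh19 in cortex at week 28 (-0.42 ± 0.12), was called.

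The 9 genes varied together from library to library. Over all 64 libraries the correlation of each gene with the mean of the other 8 was 0.969 to 0.996, which the week 1 libraries dominate. Over the 48 libraries of weeks 7, 14 and 28, after the mean of each group was removed, it ran from 0.771 up to 0.98, led by Cnp, with the lowest values for Opalin, Cldn11 (0.802) and Ugt8a (0.822). The points share tissue pieces and normalization, and these values are descriptions. Among 17063 genes with a mean of at least 10, those most like the mean of the 9 over all libraries included Tmem88b (r = 0.994), Fa2h (0.992), Gjc3 (0.986) and Plekhh1 (0.986). Within the adult groups they included Gpr37 (0.932), Adamts4 (0.932), Pde8a (0.930) and Fa2h (0.926). The coefficient of variation within a group had a median of 11.8% to 15.9% per gene over the adult groups, and within WT groups of weeks 7, 14 and 28 the highest was 23.5%, in cortex at week 14.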

How the data were processed

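Bulk RNA-seq of mouse cortex and hippocampus was read from 1 deposited table of 18432 Ensembl genes by 64 libraries. The deposited values are normalized counts, a non-negative signal that the authors obtained by quantifying transcripts with Salmon and dividing gene counts by DESeq2 size factors; the submitters' processing notes list Salmon 0.11.2, DESeq2 1.19.11, R 3.6.0 and GRCm38, and the labels name a stranded mRNA kit. Low values were whole multiples of a common step (within 0.1 read) in only 24.4% to 57.5% of cases, so reads could not be recovered. Each library sum divided by its commonest low step gives about 24900000 to 36900000. With so few values matching the step, this is a rough figure and need not be the read depth. Count models therefore could not be run on the table.

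Symbols were matched through GENCODE vM21 (18420 of 18432 IDs). Values were tested as log2(value + 1) with limma 3.58.1 (trend, moderated) in R 4.3.3, over genes with a mean of at least 1, 2-sided, with Benjamini-Hochberg adjustment and a threshold of 0.05. KI and WT were compared in 8 fits of 4 against 4 libraries, ages over the 16 WT libraries of a region, regions over the 8 WT libraries of an age, and interactions over 16 libraries. Exact permutation tests were added for each of the 9 genes between genotypes. Labels state 4 mice per age and genotype, and p-values within a region measure the spread among them. The main fits over both regions took the libraries as independent, although both regions came from the same mice.

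The members and lists were chosen with earlier results of these data known. Named genes were the 9 members, up to 3 called genes per direction of each other list and comparison, and the 5 non-members most correlated with the members over 64 and over 48 libraries. Some genes that this rule names are not reported here. The leptomeningeal genes were chosen after values were seen. Other settings tried were a pseudocount of 8, no filter, a mean of at least 50, total-sum scaling, 1 fit of all 64 libraries, sample weights, the replicate number as a block, and each library left out. Whether equal numbers mark 1 mouse is not stated. Over 12819 genes with a mean of at least 100, deviations of same-numbered cortex and hippocampus libraries correlated above 0.1 in 17 of 32 pairs, and in 4 of 4 for WT at week 1 and for KI at week 28; between KI and WT libraries they did so in 10 of 32, so genotypes were treated as unpaired. On data simulated for KI against WT in cortex at week 28, 46% of genes changed by 0.5 and 65% of genes changed by 1 on the log2 scale were recovered, with 6 false calls among 18373 genes. The same rates were 68% and 80% for WT hippocampus week 7 against 1, and 38% and 68% for genotype by region at week 28. Each simulation changed 100 genes per size and drew noise for each gene on its own. In the data 22.2% of genes were called at cortical week 28 and genes vary together, so these rates need not hold there.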

Additional observations from a re-analysis of the deposited data

Results flagged for a closer look

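Within each group of 4 libraries the highest and the lowest value of each gene were compared with the nearest other library. In 10 of 144 groups the gap took a larger part of the range than Dixon's 95% limit for 4 values, and chance gives about 1 such group in 20. None of these libraries was removed.

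WT hippocampal replicate 1 of week 14 was apart on the high side for Mag (4433, the next at 3826), Cnp (8145, next 6934) and Ugt8a (1734, next 1394). WT hippocampal replicate 2 of week 7 was apart on the low side for Mog (1447, next 1990) and Mal (7356, next 9812), and KI hippocampal replicate 1 of week 7 for Mag (5910, next 7000). Cldn11 stood apart 3 times in KI mice, high in hippocampal replicate 1 of week 14 (6137, next 4450), low in hippocampal replicate 3 of week 1 (283, next 398) and low in cortical replicate 4 of week 28 (2127, next 2768). In that same cortical library Ugt8a was also low (997, next 1129). The Cldn11 call at hippocampal week 14 held without the library at 6137 and was lost without any single WT library of that comparison (limma adjusted p 0.0531 to 0.0973).

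The KI difference of Cldn11 at week 28 was tested between the regions and was called, the only 1 of the 9 terms. The limma call was lost in several fits without a single library (adjusted p 0.0510 to 0.0723) and with the spread shared over all 64 libraries (0.136). In the main fit the difference was higher in hippocampus than in cortex by 0.63 on the log2 scale (limma interaction, adjusted p = 0.0358). That fit took all libraries as independent, although both regions came from the same mice.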

How the results depend on the processing

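Of the 252 gene-by-comparison values, 0 changed direction while called, under any setting. The rise from week 1 to week 7 kept all 9 calls in both regions in every fit. Counts of the 9 genes called moved as follows. With total-sum scaling the count went from 0 to 1 for KI in cortex at week 28, from 1 to 0 for KI in hippocampus at week 14, from 4 to 3 for WT hippocampus week 14 against 7 and from 1 to 2 between the regions at week 7. With the spread shared over all 64 libraries it went from 2 to 0 for KI in hippocampus at week 28, from 4 to 0 for WT hippocampus week 14 against 7, from 2 to 3 for the same ages in WT cortex, from 1 to 4 and from 1 to 0 between the regions at weeks 1 and 7, and from 1 to 0 for the genotype by region test of week 28. With the replicate block it went from 2 to 0 for KI in hippocampus at week 28 (adjusted p 0.0513 and 0.0514), from 2 to 1 and from 4 to 3 for week 14 against 7 in WT cortex and hippocampus, and from 1 to 6 and from 1 to 0 between the regions at weeks 1 and 7; the block changed no other count of the 9. Sample weights gave 3 in place of 2 for KI in hippocampus at week 28, 5 in place of 2 for WT cortex week 14 against 7 and 3, 1 and 1 between the regions at weeks 7, 14 and 28. A pseudocount of 8 gave 2 between the regions at week 1 and 3 for WT cortex week 14 against 7, a mean of at least 50 also gave 3 there, and no filter on low values gave 0 between the regions at week 7.

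Leaving out 1 library at a time gave 0 to 1 for KI in cortex at week 28, 0 to 1 and 0 to 4 for KI in hippocampus at weeks 14 and 28, 0 to 6 and 1 to 5 for week 14 against 7 in WT cortex and hippocampus, 0 to 4, 0 to 5, 0 to 4 and 0 to 5 between the regions at weeks 1, 7, 14 and 28, and 0 to 2 for genotype by region at week 28. Deviations of same-numbered KI and WT libraries correlated above 0.1 in 10 of 32 pairs, 3 of 4 in hippocampus at week 28, and in no comparison in all 4, so the numbers were not taken to pair the genotypes. The cause of these changes was not tested.

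Over all genes, sharing the spread over the 64 libraries moved the number called from 951 to 1946 for KI in cortex at week 14, from 2870 to 6050 in hippocampus at week 14 (1788 with the block), from 976 to 575 and from 1025 to 405 for week 14 against 7 in WT cortex and hippocampus, from 2127 to 1368 for hippocampal week 28 against 14, from 525 to 2000 (1027 with sample weights) and from 841 to 1320 for genotype by region at weeks 14 and 28, from 1899 to 3081 for the change of the hippocampal KI difference from week 7 to 14, and from 0 to 469 in hippocampus and from 0 to 913 (908 with sample weights, 9 with total-sum scaling) in cortex for its change from week 14 to 28. At weeks 1 and 7 the genotype counts stayed between 0 and 5 in those settings. Total-sum scaling moved the share of higher calls from 47.8% to 60.4% for KI in cortex at week 14, from 44.3% to 63.2% and from 39.7% to 56.2% for WT week 28 against 14 in cortex and hippocampus, from 57.7% to 47.2% for genotype by region at week 14 and from 40.1% to 50.6% for the cortical change of the KI difference from week 7 to 14.

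With 4 libraries a group, the coefficient of variation of a gene between adult mice ran from 5.05% to 41.9%, and from 22.7% to 35.8% in KI cortex at week 14, which limits the precision of the differences. The part of sequencing depth in this spread was not tested. At week 1 Opalin (down to 0 in KI cortex) and Mog (down to 4.54 in WT hippocampus) were near the detection floor.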

Other observations

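The 9 genes took 0.268% of all normalized counts in KI cortex and 0.439% in KI hippocampus at week 28, against 0.330% and 0.371% in WT, each a mean of 4 libraries. The KI means at week 14 were 0.297% and 0.358%.

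Neuronal markers differed in both regions of KI mice at week 28. Gad2, a GABA-synthesizing enzyme of inhibitory neurons, was higher in cortex (1.15 ± 0.18) and hippocampus (0.51 ± 0.07), as was Slc17a7, the vesicular glutamate transporter of excitatory neurons (0.89 ± 0.10 and 0.40 ± 0.05), all called by limma. Nefl, a neurofilament of myelinated axons, was lower in cortex (-0.60 ± 0.10) and its KI difference was higher in hippocampus than in cortex by 0.62 ± 0.12 (limma interaction). Endothelial Slco1a4 was higher in both regions (0.46 ± 0.14 and 0.53 ± 0.08).

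Among the Schwann cell list, Cdh19 rose in WT from week 1 to week 7 by 4.55 ± 0.13 in cortex and 4.60 ± 0.16 in hippocampus, a size like that of the myelin genes, while Prx (-1.84 ± 0.25 and -1.69 ± 0.24) and Egr2 (-1.72 ± 0.26 and -1.44 ± 0.26) fell.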
